A study of Mus musculus with 11 samples.

Results

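The regions described here were expressed loci that carried no gene name and lay more than 10 kb from every named locus of the same table. Each of the 2 deposited tables, 1 for the ileum and 1 for the colon, listed loci as intervals of the mm10 mouse genome, with a gene name or a dash. The rule kept the intervals with a dash whose gap to the nearest named interval was above 10 kb. It used position and name alone, but an unnamed locus is listed only where reads of these libraries were assembled. In the ileum 1360 of 16521 loci met it, out of 3505 unnamed loci, and in the colon 1689 of 18122, out of 4815 unnamed loci. Together these were 3049 of 34643 loci.

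The study compared intestinal epithelial cells (IECs) of wild-type (WT) mice and of IEC-OGT KO mice, in which Ogt, the gene of O-GlcNAc transferase, was deleted in the epithelium. All mice were males of 10 weeks. The KO mice carried floxed Ogt alleles with Cre recombinase under the Villin promoter, which is active in epithelial cells, so other cells in an isolate kept the gene. There were 2 WT ileum, 3 IEC-OGT KO ileum, 3 WT colon and 3 IEC-OGT KO colon libraries, made from pooled RNA. The tables held a single value per genotype and tissue, log2 FPKM, the number of sequenced fragments scaled by the length of the transcript and the size of the library, so no spread between libraries could be computed and no test was possible. Every difference below is a description of 2 pooled values.

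A dash in place of a name means that the tables paired the assembled stretch with no gene. Such stretches can hold long non-coding RNAs, which are transcribed and spliced but not translated. They can hold processed pseudogenes, copies of messenger RNAs inserted back into the genome by reverse transcription, whose reads resemble those of the parent gene. They can also hold gene segments of antibodies and T cell receptors, which lymphocytes join by recombination and which some gene lists leave out. The intestinal epithelium contains intraepithelial lymphocytes, so receptor segments are known from this tissue.

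Ogt itself stood at 3.39 (log2 FPKM) in WT and 1.97 in IEC-OGT KO ileum, and at 5.02 and 3.03 in the colon, lower in the KO in both tissues. Epithelial markers were high throughout, with Epcam, an adhesion protein of epithelial cells, between 9.87 and 10.27 in the 4 groups. They did not all stay level between genotypes. From WT to IEC-OGT KO ileum, Vil1 stood at 8.53 and 10.21, Krt20 at 9.30 and 10.87, Krt8 at 12.00 and 12.30 and Cdh1 at 8.40 and 7.64. In the colon the 5 markers differed by -0.32 (Cdh1) to 0.61 (Krt20). Both comparisons also carried a difference in regional markers. Car1, a carbonic anhydrase typical of the colon, stood at 12.53 in WT and 7.41 in IEC-OGT KO ileum, and Aqp8, a water channel of colonic cells, at 6.14 and -1.96. Summed over the 4 colon markers the level was 6009 FPKM in WT ileum and 181 FPKM in IEC-OGT KO ileum. The 4 ileum markers summed to 5201 FPKM and 30717 FPKM. In the colon the 4 ileum markers summed to 654 FPKM in WT and 1192 FPKM in IEC-OGT KO. The 3 colon markers listed there, without Car1, summed to 894 and 186 FPKM. The part of these shifts in the values below was not tested.

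The highest levels among these loci belonged to very short intervals. Of those under 100 bases, 23 of 51 in the ileum and 11 of 26 in the colon overlapped a pseudogene exon. Sequences of short pseudogene intervals are shown because the parent gene can be read from them. The first 3 were found in both tables. The next was the locus of highest level in the ileum. The last was listed at 0 in WT colon only. Bases in capitals differ from the most similar protein-coding transcript of GENCODE, and all sequences are from GENCODE vM21 (GRCm38), 5′ to 3′ on the strand of the pseudogene.
Gm8894, chr14:55420666-55420744, minus strand: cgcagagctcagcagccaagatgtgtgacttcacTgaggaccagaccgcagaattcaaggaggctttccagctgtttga
Gm6198, chr1:81556195-81556273, minus strand: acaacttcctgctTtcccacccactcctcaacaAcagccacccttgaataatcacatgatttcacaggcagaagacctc
Gm5555, chr5:49552366-49552502, plus strand: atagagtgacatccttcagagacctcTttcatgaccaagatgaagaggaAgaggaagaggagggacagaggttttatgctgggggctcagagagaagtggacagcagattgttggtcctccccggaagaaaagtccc
Slc25a5-ps, chr14:11180820-11180894, plus strand: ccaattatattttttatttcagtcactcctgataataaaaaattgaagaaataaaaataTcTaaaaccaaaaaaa
Gm7380, chr7:139775029-139775123, plus strand: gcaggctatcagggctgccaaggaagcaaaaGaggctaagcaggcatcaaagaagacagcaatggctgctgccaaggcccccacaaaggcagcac
Gm8894 matched Myl6, a myosin light chain, with 1 mismatch in 78 aligned bases. Gm6198 matched R3hdm2 with 2 mismatches in 79, and Gm5555 matched Nsfl1c, a cofactor of the p97 ATPase, with 2 in 137. Slc25a5-ps matched Slc25a5, the mitochondrial ADP/ATP carrier, with 2 in 68 and left 7 bases unaligned. Gm7380 matched Rpl24, a protein of the large ribosomal subunit, with 1 mismatch in 95.

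The reads were 75 bases long, so a read from the parent messenger RNA and one from the copy differ at few positions or none. The values of such loci are therefore uncertain, because the tables do not show how reads matching both places were assigned. Gm8894 stood at 11.67 (log2 FPKM) in WT and 12.40 in IEC-OGT KO ileum, beside 10.38 and 10.90 for Myl6. Gm6198 stood at 10.67 and 12.30, while R3hdm2 stood at 4.22 and 4.19, so the pseudogene interval was listed far above its most similar gene. Slc25a5-ps stood at 11.96 and 14.56, a difference of 2.60, and Slc25a5 at 10.26 and 11.20, a difference of 0.94. Gm7380 was listed at 0 in WT colon and at 8.78 in IEC-OGT KO colon, while Rpl24 stood at 9.49 and 9.14. The difference of the copy and that of its most similar gene were 1.63 and -0.03 for Gm6198. Copy and gene did not keep a common ratio for Gm6198, Slc25a5-ps and Gm7380. Differences were closer for Gm8894, 0.73 beside 0.52, and for Gm5555, 0.49 beside 0.38 for Nsfl1c in the ileum. Levels of so short an interval and of a whole gene are not on a par. Few short loci could be checked in this way. Of 51 ileal loci under 100 bases 3 lay wholly in a GENCODE exon, and all 3 matched a coding transcript at 95% identity or more over at least 90% of their length. From 100 to 200 bases, 14 of 21 did in the ileum and 13 of 18 in the colon.

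Level and length were tied at the short end. The interval of a locus runs from its first to its last base on the genome, introns included, and assemblies that overlap share an interval, so 1360 ileal loci had 1262 distinct intervals and 1689 colonic loci had 1522. The median length was 678 bases in the ileum, with quartiles of 371 and 2697, and 859 bases in the colon, with quartiles of 472 and 3201. Named loci had medians of 26688 and 27960 bases. The mean FPKM of both genotypes had medians of 0.940 (ileum) and 0.732 (colon), against 9.19 and 9.49 for named loci.

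Loci under 100 bases broke this pattern. Their median was 2014 FPKM over 51 ileal loci and 1606 FPKM over 26 colonic loci. From 100 to 200 bases the medians were 69.1 FPKM (95 loci) and 45.8 FPKM (82 loci). From 500 to 1000 bases they were 0.514 FPKM and 0.527 FPKM. FPKM divides by length, and an interval as short as a single read is divided by the smallest length, so a level there is not on a par with that of a long locus. The highest value of either table was of this kind: chr11:109011880-109011963, 84 bases with no GENCODE gene, stood at 16.85 (log2 FPKM) in WT colon and 17.24 in IEC-OGT KO colon. The ileal assembly at the same place spanned 109011789 to 109011964 and stood at 10.72 and 11.04. The tissues were normalised separately, and the interval also differed, so the gap between them was not compared.

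**Figure D1:**
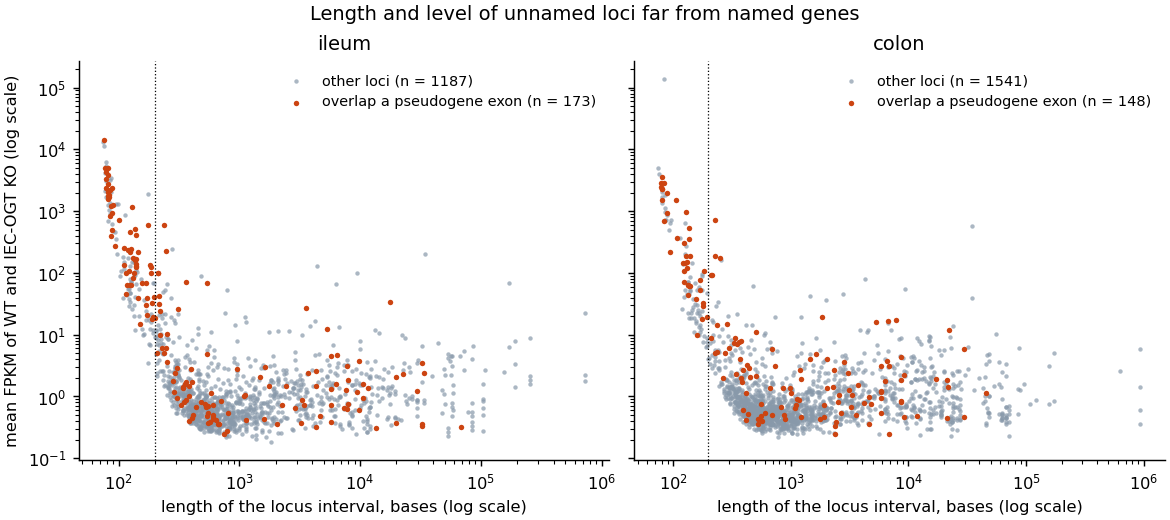
Length of each locus interval (bases, log axis) against its mean FPKM of WT and IEC-OGT KO (log axis), with a point per locus in ileum (1360) and colon (1689) and the dotted line at 200 bases. Loci under 100 bases have a median of 2014 FPKM in the ileum and 1606 FPKM in the colon, and loci of 500 to 1000 bases lie near 0.5 FPKM.

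The distance to the nearest named locus had medians of 44.4 kb (ileum) and 37.4 kb (colon). It exceeded 100 kb for 399 and 415 loci, and 1000 kb for 46 and 25. The loci just inside the limit included a stretch of Neat1, a nuclear architectural long non-coding RNA, 10.03 kb from the named Neat1 locus in the colon, at -3.06 (log2 FPKM) in WT and -0.48 in IEC-OGT KO. Just outside it in the ileum lay chr18:21111997-21112413, 9.97 kb from Mep1b, at -1.23 and -0.16. No named locus lay on the mitochondrial chromosome, so all its 7 ileal and 6 colonic loci counted. Every autosome and both sex chromosomes held such loci. Chromosome 12 held the most per named locus among the autosomes, 22.6 per 100 in the ileum and 25.7 in the colon. Chromosome 11 held the fewest in the ileum, 5.32, and chromosome 9 in the colon, 7.27.

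GENCODE vM21 placed a gene at part of these loci. In the ileum 43.7% overlapped an exon, 7.65% lay in introns only, and 48.7% touched no gene. In the colon the shares were 33.0%, 11.7% and 55.3%. Some of the remainder had a RefSeq gene, and 422 ileal and 594 colonic loci had neither. Long non-coding exons were the commonest annotated class (218 and 279 loci), followed by pseudogene exons (173 and 148) and exons of protein-coding genes (112 and 106). Immunoglobulin segments gave 59 ileal and 4 colonic loci, and T cell receptor segments 18 and 10.

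More of these loci were higher than lower in the IEC-OGT KO. In the ileum 758 of 1360 (55.7%) stood more than 2-fold higher, where 24.2% of all loci of the table did, and 180 (13.2%) more than 2-fold lower, where 14.3% of all loci did. In the colon 685 of 1689 (40.6%) stood higher, against 14.9% of all loci, and 277 (16.4%) lower, against 9.95%. These shares depend on low values. On the log2(FPKM + 1) scale, 21.7% of the ileal loci stood higher, where 10.8% of all loci did, and 12.0% of the colonic loci, where 4.36% did. Without the added 1, named loci were nearly balanced, with 16.3% higher and 14.8% lower in the ileum and 7.72% and 8.33% in the colon.

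Unnamed loci nearer to a gene had similar shares in the ileum and smaller ones in the colon. Those within 10 kb of a named locus stood more than 2-fold higher in 52.6% of 2145 ileal cases and lower in 12.2%. In the colon the shares of 3126 such loci were 31.4% and 13.4%. The median difference (IEC-OGT KO minus WT, log2 FPKM) over loci above 0 in both genotypes was 1.12 in the ileum (1211 loci) and 0.49 in the colon (1636 loci), against -0.06 and -0.04 for named loci. Loci listed at 0 were also unequal, 120 in WT and 29 in IEC-OGT KO ileum, and 48 and 5 in the colon. Over all loci these counts were 267 and 51 in the ileum and 77 and 13 in the colon. Near unnamed loci gave 109 and 10, and 17 and 3. Named loci gave 38 and 12, and 12 and 5, so the imbalance was not particular to the far loci.

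Low level went with the larger shares of higher loci, and in the colon of lower loci as well. Below 0.5 FPKM 79.7% of 330 ileal loci stood more than 2-fold higher, and from 1 to 10 FPKM 45.5% of 446. In the colon these shares were 55.6% of 435 and 32.6% of 497. At the same levels named loci gave 42.4% and 14.8% in the ileum and 28.8% and 8.18% in the colon. Lower by more than 2-fold were 12.7% and 13.9% of the far loci in the ileum and 26.0% and 11.3% in the colon. For named loci these shares were 27.3% and 16.9%, and 23.9% and 10.7%. The share higher was above that of named loci within each of these level ranges. An unnamed locus silent in WT could be listed only through its KO reads, and the reverse. The parts of this listing and of read depth in the shares were not tested.

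**Figure D2:**
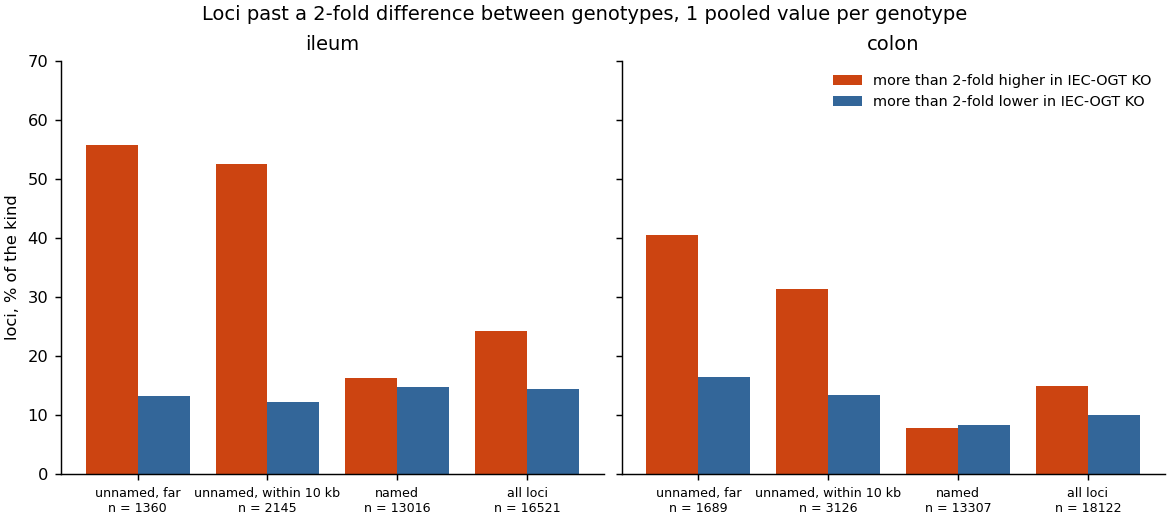
Share of loci (%) more than 2-fold higher (red) or lower (blue) in IEC-OGT KO than in WT, for far unnamed, near unnamed, named and all loci, from a single pooled value per genotype. The red bar of the far unnamed loci reaches 55.7% (ileum) and 40.6% (colon), and the named bars are nearly equal in both directions.

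The classes of annotation differed in how far they leaned. Loci with no GENCODE gene had a median difference of 1.53 in the ileum, with 429 of 662 (64.8%) more than 2-fold higher. In the colon it was 0.88, with 461 of 934 (49.4%). Of all loci 24.2% (ileum) and 14.9% (colon) stood that much higher. Pseudogene exons had medians of 0.91 and 0.04, long non-coding exons 0.83 and 0.33, and protein-coding exons 0.45 and 0.01. Of these 4 classes the unannotated stretches had the largest median in both tissues. Loci in introns only stood between in the ileum at 1.45 and near the exons in the colon at 0.29.

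**Figure D3:**
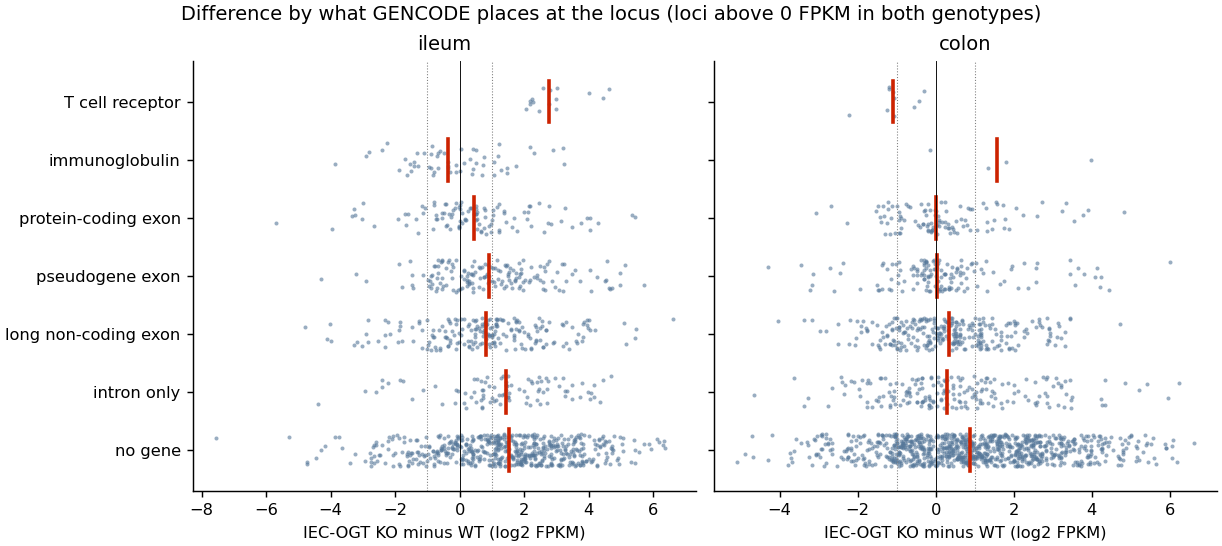
Difference IEC-OGT KO minus WT (log2 FPKM) of each locus above 0 in both genotypes, by what GENCODE places at the locus, with a point per locus, a red bar at the class median and dotted lines at 2-fold. All ileal T cell receptor points lie to the right of 2-fold and all colonic ones to the left of 0, while loci with no gene have medians of 1.53 and 0.88.

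T cell receptor segments stood higher throughout in IEC-OGT KO ileum and lower throughout in IEC-OGT KO colon. All 18 loci stood more than 2-fold higher in the ileum, where 24.2% of all loci did, and the 15 loci above 0 in both genotypes differed by 2.05 to 4.63 on the log2 scale. The 18 loci had 16 distinct intervals. The 3 listed at 0 in WT could be listed only through KO reads, so their direction was set by the listing. In the colon none of 10 stood more than 2-fold higher and 7 stood more than 2-fold lower, where 9.95% of all loci did, with differences from -2.22 to -0.29. The difference between the tissues was not tested.

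The constant segments, which form the part of the receptor chain shared by all T cells of a lineage, carried the highest levels. The Trbc2 locus at chr6:41547603-41548355, of the beta chain, stood at 3.12 (log2 FPKM) in WT and 5.17 in IEC-OGT KO ileum. In the colon the overlapping locus stood at 1.67 and 0.42. The interval with Trac, of the alpha chain, stood at 1.41 and 3.60 in the ileum and at 1.45 and 0.25 in the colon. Alpha and beta chains thus showed the same pair of directions. The gamma and delta chains, used by many intraepithelial lymphocytes, did as well. The interval with Trdc stood at 0.28 and 2.51 in the ileum and at 0.68 and 0.39 in the colon, and that with Tcrg-C1 and Tcrg-C3 at 0.59 and 3.05 and at 0.77 and 0.35.

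Variable segments, which shape the antigen-binding part of the chain, were seen in the ileum with 6 Trbv and 3 Tcrg-V loci of their own. Trbv13-1 and Trbv14 were listed at 0 in WT ileum and at 1.66 and 1.17 in IEC-OGT KO ileum. Trbv19 stood at -4.47 and 0.16, and Tcrg-V7 at -0.45 and 2.58. No Trbv locus was among the colonic ones. A listing at 0 in WT ileum, from 2 libraries against 3 of the KO, does not show that a segment was absent there. The germline Trbv14 stretch at the centre of its locus, chr6:41135369-41135568 on the plus strand, is shown as a segment listed above 0 in a single genotype, with no letters marked.
Trbv14: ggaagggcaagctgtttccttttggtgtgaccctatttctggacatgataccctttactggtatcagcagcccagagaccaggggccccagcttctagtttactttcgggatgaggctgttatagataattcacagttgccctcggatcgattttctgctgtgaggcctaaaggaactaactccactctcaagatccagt
T cell markers that are named in the tables differed in the same directions. Cd3e, a subunit of the receptor complex, stood at 1.97 and 4.24 in the ileum and at 2.13 and 1.13 in the colon. Summed over Cd3e, Cd3g, Cd8a and Gzma the level was 49.4 and 349 FPKM in the ileum and 23.1 and 12.8 FPKM in the colon, with 4 of 4 higher and 4 of 4 lower. More T cells and more receptor RNA per cell cannot be told apart in bulk libraries.

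Immunoglobulin segments had no single direction in the ileum, with 15 of 59 loci more than 2-fold higher and 15 more than 2-fold lower, against 24.2% and 14.3% of all loci. Igkc, the constant part of the kappa light chain, stood at 7.39 in WT and 6.56 in IEC-OGT KO ileum. The strongest of the heavy chain constant assemblies, in an interval with Igha and Ighm, stood at 6.41 and 5.73. The kappa variable segments went both ways: Igkv19-93 stood at 4.52 and 1.62, and Igkv8-27 at 1.69 and 3.17. Summed over 33 kappa loci the level was 274 and 179 FPKM. In the colon 3 of 4 loci stood more than 2-fold higher, where 14.9% of all loci did, with Igkc at 2.31 and 4.12. The B cell marker Cd79a stood at 1.70 and 1.23 in the ileum.

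Exons of protein-coding genes appeared among these loci where the tables gave the interval no name. Muc3, a membrane mucin of the apical surface of epithelial cells, had the highest level of them in the ileum and the next highest after the predicted gene Gm2000 in the colon. Its main assembly stood at 9.56 in WT and 8.61 in IEC-OGT KO colon, and at 7.37 and 7.89 in the ileum. Neighbouring loci were lower in the KO colon as well. From chr5:137131670 to 137185591, 6 of the 7 loci stood more than 2-fold lower, where 9.95% of all loci did, with a median of -1.20. Of the 4 ileal loci there none passed 2-fold. Muc3a stood at 6.78 and 5.56 in the colon and 4.39 and 3.65 in the ileum. All 5 ileal and all 4 colonic loci over exons of Muc16, another membrane mucin, stood more than 2-fold lower, where 14.3% and 9.95% of all loci did. The locus chr9:18495447-18497825 stood at 1.84 and -2.13 in the ileum, and chr9:18537767-18538979 stood at 2.64 and was listed at 0 in the KO.

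Socs2, a suppressor of cytokine signalling, had 4 ileal loci over its exons, from chr10:95384819 to 95390604, all more than 2-fold lower, the strongest at 1.95 and 0.60. In the colon both loci over its exons were more than 2-fold lower, at differences of -1.32 and -1.05. Of all loci 14.3% (ileum) and 9.95% (colon) stood that much lower. Both tables held a separate locus under the name Socs2, over the 5′ end of the gene. In the colon it lay 19.8 kb away and differed by 0.05. Sprr2a3, of the small proline-rich proteins of barrier epithelia, stood at 3.12 and 4.34 in the ileum and at 4.59 and 5.89 in the colon. Shorter loci over the same gene matched 2 other coding genes, with Sprr2a1 at 96.7% (ileum) and 98.1% (colon) identity. How reads matching several of these genes were assigned is not known, so the values may not be those of Sprr2a3 alone. Atg4a, a protease of autophagy, was higher in the KO in both at its locus from chrX:140986352, at 2.68 and 4.38 and at 2.76 and 4.08. The tables used the name Atg4a for another locus, on chromosome 3. Scgb1b10, a secretoglobin, stood at -0.50 and 4.32 in the colon. Malrd1, known in mouse for its part in ileal Fgf15 output, gave the longest ileal interval, chr2:15526539-16255554, where the strongest of 3 assemblies stood at 4.41 and 4.57. The longest in the colon was that of Naaladl2, chr3:23846528-24783575, with 2.32 and 2.76 for the strongest of its assemblies.

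Among loci of at least 1 FPKM and above 0 in both genotypes, the largest positive differences lay mostly in stretches with no GENCODE gene. Such stretches made up 48.7% of all these ileal loci and 55.3% of the colonic ones. In the ileum chr7:17540445-17541028 stood at -3.55 in WT and 2.81 in IEC-OGT KO, and the adjoining chr7:17541372-17542443 at -4.26 and 2.09. An overlapping colonic locus, chr7:17541693-17542035, was listed at 0 in WT and at 2.20 in the KO. These stretches were nearly silent in WT in both tissues. The nearest named gene, Hif3a, a hypoxia-inducible factor subunit, lay 478 kb away and differed by 4.12 (ileum) and 2.12 (colon). Further ileal loci of this size were chr6:17619201-17619639, at -3.98 and 2.21, 17.4 kb from Capza2, and chr5:146634113-146687460, at -3.07 and 3.05, 47.3 kb from Usp12. The pseudogenes Gm5884 and Gm44478, beside Clec2h, a lectin-like receptor gene, stood at 0.00 and 5.72.

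The largest ileal differences in the other direction were smaller. The locus chr10:128981099-128983996, 20.1 kb from the integrin gene Itga7, stood at 1.66 and -3.08. The locus chr11:50119699-50120022, 11.3 kb from Tbc1d9b, overlapped the RefSeq gene Rnf130 and stood at 1.45 and -3.29. The locus chr11:58234470-58239659, 11.6 kb from Irgm2, an interferon-inducible GTPase, overlapped the RefSeq gene Gm51898 and stood at 1.15 and -3.30. A kappa variable segment, Igkv6-14, stood at 2.29 and -1.58. No class of annotation was common to them.

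In the colon the largest positive difference was at chr16:31385125-31385473, -3.86 in WT and 2.23 in IEC-OGT KO. The pseudogene interval chr8:34306490-34328051 (Gm4889, Gm6100, Gm8254) stood at -4.52 and 1.49, and chr9:3951278-3952373 at -4.90 in WT, with a difference of 5.90. At the other end, chr1:164858717-164859026, in an intron of Gm32569, stood at 1.43 and -3.22. The interval of Gm12707 and Gm830 at chr4:95464650-95487428 stood at 3.53 and -0.50, and Gm8989 at chr7:106330622-106352652 at 4.43 and 1.21. The nearest coding gene of the last was Gvin1, an interferon-inducible very large GTPase, 115 kb away. Short colonic loci over Gm8989, at chr7:106325337-106325476 and chr7:106327316-106327553, each matched 2 coding genes. The closest was Gm4070, at 97.1% and 96.2% identity. How reads matching both places were assigned is not known, so the values of Gm8989 are uncertain.

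Loci listed at 0 in 1 genotype and high in the other were mostly short. The ileal locus chr8:5641223-5641299, 77 bases, was listed at 0 in WT and at 12.04 in IEC-OGT KO. The colonic chr9:96434174-96434249, 76 bases, was at 12.95 in WT and listed at 0 in the KO. A locus of 75 bases, chr18:16274502-16274576, had the same coordinates in both tables, with 14.23 and 11.58 in the ileum and 13.26 in WT colon, and was listed at 0 in IEC-OGT KO colon. An interval a single read long can go from 0 to a high FPKM on few reads, so no fold is given. Longer loci listed at 0 in IEC-OGT KO ileum were 1700003I22Rik, chr1:56017026-56020197, at 2.14 in WT, and Gm14874, chrX:103643648-103677216, at 2.25.

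Loci often lay beside each other. With gaps of up to 10 kb bridged, the ileal loci formed 850 groups, 598 of them single loci, and the colonic ones 855, of which 518 were single. Runs of 3 or more numbered 117 in the ileum (492 loci) and 170 in the colon (837 loci). In the ileum 48 runs had every locus more than 2-fold higher and 10 every locus more than 2-fold lower, and 8 had loci past 2-fold in both directions. In the colon these counts were 50, 14 and 7. Over all loci 24.2% stood more than 2-fold higher and 14.3% lower in the ileum, and 14.9% and 9.95% in the colon. Runs were not formed over all loci, so the counts of runs here and below have no such share beside them. Loci of a run can be pieces of a single transcript and are not independent. Runs are called here by the genes they overlap, though some of their loci lie beside the gene.

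Both tables held 49 runs that overlapped, the mitochondrial one included. In 9 of them every locus was more than 2-fold higher in both tissues, and in 2 every locus was more than 2-fold lower in both. The run on chromosome 16, from 31374277 to 31385473 in the ileum and 31374262 to 31405626 in the colon, had 6 of 6 and 14 of 14 loci higher, with medians of 2.75 and 4.16, and overlaps the transcribed pseudogene 1700007E05Rik. Its strongest locus, at chr16:31384909-31385041, stood at 2.79 and 5.08 in the ileum. In the colon the overlapping locus stood at 1.75 and 5.10. The KO levels of this locus were alike in number and the WT levels differed, on scales set separately.

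The Gm13710 run on chromosome 2 had 5 of 5 and 7 of 7 loci higher, with its strongest assembly at -2.42 and 2.03 in the ileum and at -2.24 in WT colon, with a difference of 4.24. The Gm19786 run on chromosome 12 had 5 of 5 and 6 of 6 higher, with medians of 4.57 and 3.82. The Gm30806 run on chromosome 14, 40.7 kb from Ebf2 in the ileum, had 5 of 5 and 9 of 9 higher, with medians of 3.26 and 2.85. GENCODE lists Gm13710 and Gm30806 as long intergenic non-coding RNAs and Gm19786 as an unprocessed pseudogene. Every locus of these 3 runs was below 1 FPKM in WT in both tissues.

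Runs that were lower in both tissues were that of Gm12707 and Gm830 on chromosome 4 and that of Muc16. The former had 3 of 3 ileal loci lower, with a median of -4.12, and 6 of 6 colonic loci, with a median of -4.29. Other runs separated the tissues. The run at the long non-coding gene 4732465J04Rik on chromosome 10 had 9 of 9 ileal loci more than 2-fold lower, 5 of them over the gene and 4 beside it, with a median of -2.67 and the strongest at 4.04 and 1.73. In the colon 1 of 7 passed 2-fold and the median was -0.32. The run at Gm8995, a transcribed pseudogene, from chr7:106502610, had 10 of 10 ileal loci higher (median 3.06) and 2 of 3 colonic loci lower (median -1.02). The pseudogene Cbx3-ps8 run, chr9:7711528-7727564, 11.9 kb from Mmp7, had 10 of 10 ileal loci higher, 6 of them listed at 0 in WT. The difference between tissues was not tested for any run.

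**Figure D4:**
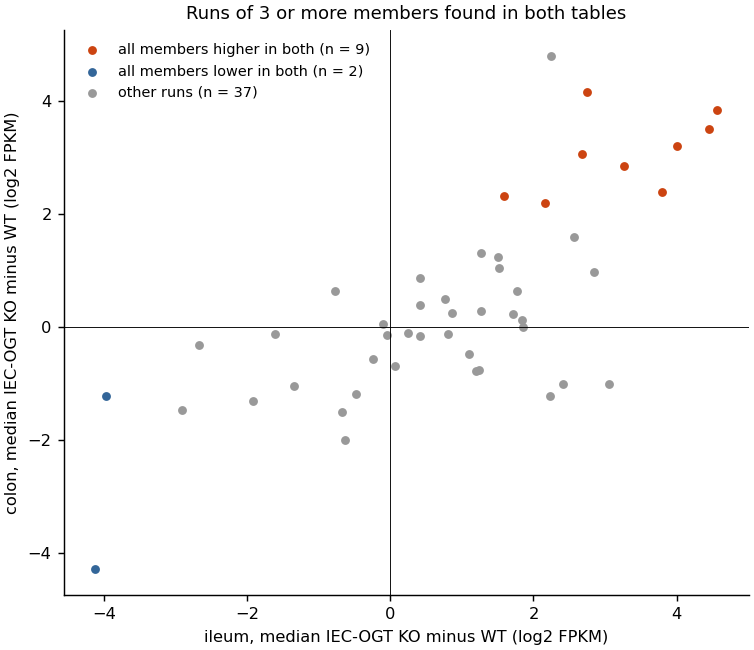
Median difference IEC-OGT KO minus WT (log2 FPKM) of each run of 3 or more neighbouring loci found in both tables, ileum on the x axis and colon on the y axis, for the 48 runs outside the mitochondrial chromosome. Red points are the 9 runs with every locus more than 2-fold higher in both tissues, blue points the 2 with every locus lower, and grey points the other 37.

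Part of the loci were seen in both tissues. Of the ileal loci 833 (61.3%) shared at least 1 base with a locus of the colon table, and of the colonic loci 792 (46.9%) with a locus of the ileum table. The partner was itself a far unnamed locus for 745 and 733, an unnamed locus nearer to a gene for 78 and 49, and a named locus for 10 and 10. Ileal loci with no partner had a median difference of 1.91 and those with a far partner 0.79. In the colon the medians were 0.58 and 0.44. Of ileal loci more than 2-fold lower 68.3% had a colonic partner, and of those more than 2-fold higher 50.1%, while loci within 2-fold had the largest share, 78.2%. In the colon 35.0% of the lower, 41.5% of the higher and 56.5% of the loci within 2-fold had an ileal partner. Overlap was not computed over all loci, so none of these shares has a share over all loci beside it. The partners of the lower ileal loci had a median WT colon level of 0.92 (log2 FPKM) and the partners of the higher ileal loci -0.70. WT ileum held more of the colon markers than IEC-OGT KO ileum, as given above, and the part of that in these values was not tested.

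Matching 1 ileal locus to 1 colonic locus left 412 pairs. Their levels followed each other across tissues, with a Pearson r of 0.89 between the WT groups and 0.86 between the KO groups over the 392 pairs above 0 in all 4. The differences followed each other less closely, with r = 0.60 and Spearman rho = 0.55. The pairs share at least 1 base of their interval, often not its whole length, and neighbours are not independent. In 111 pairs both tissues stood more than 2-fold higher, in 17 both lower, and in 10 the tissues passed 2-fold in opposite directions. Neither tissue passed 2-fold in 151. The same pairing was not made over all loci, so these counts have no share over all loci beside them. Short pseudogene intervals were among the pairs of highest level. Gm5586, chr7:16719061-16719142, stood at 11.48 and 12.24 in the ileum and 11.42 and 11.11 in the colon, and Gm13588, chr2:38490207-38490294, at 11.14 and 11.27 and at 10.64 and 11.19. Gm10086, chr5:108517501-108517582, stood at 11.49 and 12.78 and at 10.19 and 10.83.

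**Figure D5:**
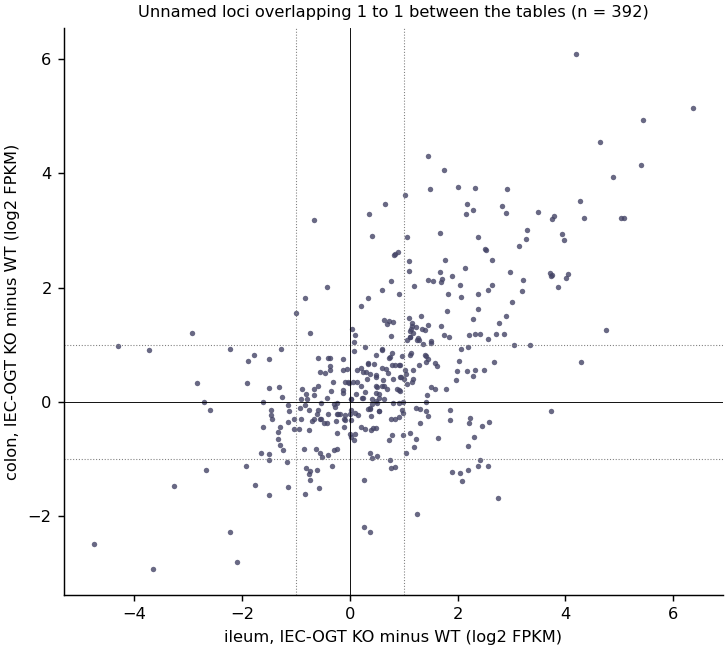
Difference IEC-OGT KO minus WT (log2 FPKM) in the ileum (x axis) and colon (y axis) for the 392 loci that overlapped 1 to 1 between the tables and were above 0 in all groups, with dotted lines at 2-fold. Most points past 2-fold in both tissues lie at the upper right, and r is 0.60.

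The mitochondrial loci, which hold the genes of the respiratory chain encoded outside the nucleus, were at modest levels here. In the ileum mt-Nd2 stood at 2.10 and 3.53 and mt-Nd1 at 1.07 and 2.64, and 5 of 7 loci stood more than 2-fold higher, where 24.2% of all loci did. In the colon 6 assemblies shared a single interval, chrM:367-15261, and 2 stood more than 2-fold higher, where 14.9% of all loci did. None was more than 2-fold lower in either tissue. All 13 had higher values in the KO.

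Differences at far loci followed those of the nearest named gene only weakly. For loci 10 to 20 kb away, Spearman's rho between the difference of the locus and that of the named gene was 0.29 over 271 ileal and 0.24 over 445 colonic loci. Over the 5 ranges of distance it lay between 0.08 (50 to 100 kb, 206 loci) and 0.29 in the ileum. In the colon it lay between -0.04 (100 to 500 kb, 323 loci) and 0.34 (50 to 100 kb, 251 loci), and beyond 500 kb it was 0.33 over 69 loci. It had no steady course with distance. Unnamed loci that overlapped a named interval gave 0.41 over 246 and 0.43 over 499. Several loci can share a named neighbour, so these points are not independent.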

How the data were processed

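RNA from isolated epithelial cells of 11 libraries was sequenced by the authors as 75-base single reads. Per the labels, reads were handled with TopHat 1.0.0, Bowtie and Cufflinks against mm10, and the roles of other settings are not given in the sources used here. The authors deposited log2 FPKM values, pooled to 1 value per genotype and tissue, with 0 FPKM listed at -10. The columns are headed control and comparison, read here as WT and IEC-OGT KO, the genotypes of the design. A single line of each file was emptied before this work. The deposited log2 ratio, q-value and significance columns hold the authors' own comparison and were not used. Depth per library is unknown, so no interval or detection limit is given.

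Distances, lengths, differences and overlaps were computed with Python 3.11.15, pandas 2.3.3 and NumPy 2.4.6, and checked on planted intervals. Starts matched RefSeq starts minus 1 for 4011 of 11847 ileal named rows and RefSeq starts themselves for 362, so they were read as counted from 0 and are printed from 1. A difference past 2-fold means more than 1 on the log2 scale, with loci at 0 counted. Annotation was GENCODE vM21 and RefSeq of GRCm38, the assembly of mm10, and similarity was searched with BLAST 2.17.0. No genome sequence was used here, so sequence could be read at the centre of 17.4% of ileal and 11.2% of colonic loci, under the 80% needed for a check of base composition or motifs, which is void.

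Loci named in the text were the 6 of highest mean FPKM, the 6 largest differences in each direction at 1 FPKM or more, the 4 longest, up to 6 listed at 0 in each genotype, the 6 strongest overlapping pairs and the 3 on each side of the distance limit, from which the text takes examples. Receptor segments, coding genes, runs, long non-coding genes and the printed sequences were chosen after their values were seen. The members and lists were chosen with earlier results of these data known.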

Additional observations from a re-analysis of the deposited data

How the results depend on the processing

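No paired analysis was possible because the tables hold 1 pooled value per genotype and tissue, and for the same reason no library could be left out and no spread between libraries is known. Depth is unknown, and low or very short loci are the least certain. The alternative of 100-base windows for sequence features was not run, since too few loci had sequence. Of 120 alternative values 65 stayed within the counting interval of the reported value (within 1.5 times for numbers of loci), and 55 moved outside it. A change of sign was looked for in the median differences alone, and 0 of those changed sign. Such intervals treat loci as independent, which neighbours are not. The causes of the shifts were not tested.

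With a distance of more than 50 kb there were 633 ileal and 678 colonic loci, the median level was 1.07 and 0.779 FPKM, and in the colon 18.7% stood lower, the median difference was 0.40 and the median length 930.5 bases. With all GENCODE genes as the named set the numbers were 366 and 537. The shares higher were then 67.2% and 55.9%, the median differences 1.82 and 1.21, the median levels 0.684 and 0.630 FPKM, and the colonic share lower 13.8%. At a mean of at least 1 FPKM there were 645 and 638 loci, with 44.2% and 30.4% higher, 11.9% lower in the colon, median differences of 0.69 and 0.28, median levels of 2.82 and 2.49 FPKM and an ileal median length of 416 bases.

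On the log2(FPKM + 1) scale, which compresses low values, 21.7% and 12.0% stood higher, 5.96% and 2.96% lower, and the median differences were 0.54 and 0.28. All loci of the tables gave 10.8% and 4.36% higher and 7.89% and 3.34% lower on that scale. The correlation between tissues was 0.51. With 0.1 added, the colonic shares were 37.8% and 13.5%. At 1.5-fold the ileal shares were 63.9% higher and 18.3% lower and the colonic ones 49.1% and 24.2%. At 4-fold they were 38.0% and 7.50%, and 25.7% and 6.28%. Without loci listed at 0, 52.7% of ileal loci stood higher. When 50% of each interval had to be shared, 33.0% of ileal and 27.4% of colonic loci overlapped the other table, and with far unnamed partners only 54.8% and 43.4%.

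Further settings were chosen after seeing the data. With a single locus per run, 51.3% of ileal loci stood higher with a median difference of 0.94, and 13.9% of colonic loci stood lower. Over loci without a GENCODE exon the shares higher were 64.9% and 47.3% and the medians 1.48 and 0.77. Leaving out loci under 200 bases, or receptor segments, kept every share and median within the interval.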
